A study of Mus musculus with 4 samples.

Results

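The genes described are the paired isoforms of cytochrome c oxidase, the last enzyme of the mitochondrial respiratory chain. The members are the 9 genes Cox4i1, Cox4i2, Cox6a1, Cox6a2, Cox7a1, Cox7a2, Cox7a2l, Cox8a and Cox8b, taken by symbol from the 43346 gene identifiers that were counted. All 9 were detected in every library, and all 9 passed the filter on low counts. The hearts were collected at birth, on postnatal day 0 (P0), and their RNA was sequenced in 2 wild type libraries of the ICR background, here the controls, and 2 MRTFA/B double knockout libraries of a mixed background, here the mutants. MRTFA and MRTFB are coactivators of serum response factor (SRF), and the series compares hearts with and without them. The labels name no allele, promoter or Cre driver and no sex, and whether paired libraries stem from separate animals is not stated. P-values thus rest on library spread, which may be technical. Strain background follows genotype in all 4 libraries, so the contributions of strain and genotype cannot be told apart.

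Cytochrome c oxidase, or complex IV, takes electrons from cytochrome c, reduces oxygen to water and pumps protons across the inner mitochondrial membrane. Its catalytic core is encoded by mitochondrial DNA and is surrounded by small nuclear-encoded subunits. For several of these the mouse has a general form and a form that prevails in heart and skeletal muscle. Cox6a2, Cox7a1 and Cox8b encode the heart and muscle forms of subunits 6a, 7a and 8, and Cox6a1, Cox7a2 and Cox8a encode the general forms. Cox4i1 encodes the common form of subunit 4, and Cox4i2 a form known from lung and from oxygen-sensing cells. Cox7a2l, also called SCAF1, is a relative of subunit 7a that joins complex IV to complex III in supercomplexes. In rodent hearts the muscle forms gain on the general forms as the heart matures around and after birth.

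Libraries held 16175259 to 29460641 counted reads, and double knockout library 2 was the shallowest. Levels are given in CPM, the reads of a gene scaled to a common library size. The targeted gene Mrtfa measured 9.06 and 11.1 CPM in the controls against 3.35 and 2.26 CPM in the mutants. Mrtfb measured 46.9 and 56.8 CPM in the controls against 46.0 and 49.6 CPM in the mutants, and a count over the whole gene checks nothing about a deleted part. CPM here are adjusted by the trimmed mean of M-values (TMM), a scaling for library composition. The 12 cardiomyocyte markers summed to 61978 and 60194 CPM in the controls against 57126 and 53742 CPM in the mutants. Of the 14 skeletal muscle markers, Myod1 and Pax7 were at 0 counts in every library. Of the 12 brown adipocyte markers, Lep was at 0 in every library and the defining gene Ucp1 had 0 to 0.0402 CPM, while Fabp4, which endothelial cells also express, lay at 441 to 590.2 CPM.

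Of the 3 heart and muscle isoforms, Cox7a1 and Cox8b lay lower in both mutant libraries than in both control libraries, and they lay lower against their general partners as well. The third, Cox6a2, lay clearly lower only in double knockout library 1. In double knockout library 2 it measured 116.5 CPM against 116.7 CPM in wild type library 1. Cox6a1 lay lower by more, so the ratio of Cox6a2 to Cox6a1 was higher in both mutant libraries. Cox7a1 showed the greatest difference of the 9 members, at 56.1% of its wild type level, but it did not pass the threshold over all genes in the main test.

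Ordered by wild type level per kb of annotated exon, Cox6a2 led with 174 ± 2.73 CPM per kb (mean ± SD, n = 2 here and below). Cox7a2 followed with 126 ± 0.365 and Cox4i1 with 125 ± 2.43 CPM per kb, and the libraries of these neighbours overlapped. Next came Cox7a2l at 84.0 ± 13.2, Cox6a1 at 82.4 ± 0.913 and Cox8a at 80.4 ± 10.2 CPM per kb, whose libraries also overlapped. Cox8b lay apart below them at 54.8 ± 1.71, then Cox7a1 at 36.0 ± 1.43 and Cox4i2 at 3.45 ± 0.556 CPM per kb. The order at the top depends on the length used. Over the transcript annotated as principal, in place of all exons, Cox4i1 came first with 253 CPM per kb, before Cox7a2 with 181 and Cox6a2 with 174 CPM per kb.

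**Figure D1:**
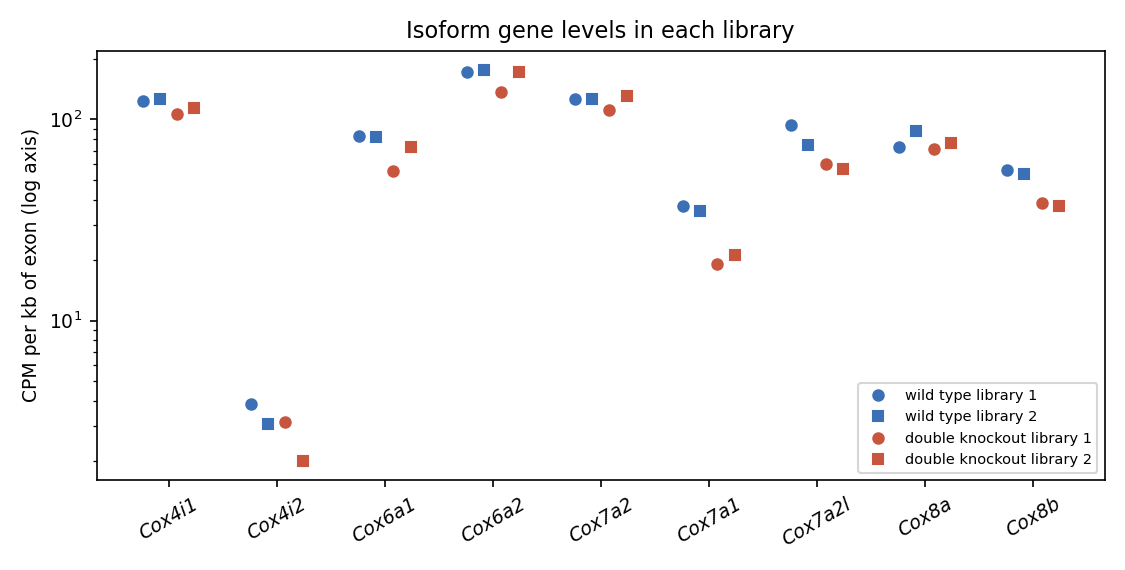
Level of each isoform gene in each library, as TMM-adjusted CPM per kb of annotated exon on a log axis, with 1 point per library (blue, wild type; red, double knockout; circles, library 1; squares, library 2). The red points of Cox7a1 (19.1 and 21.3) and Cox8b (38.4 and 37.0) sit below the blue ones (37.0 and 35.0 for Cox7a1, 56.0 and 53.6 for Cox8b).

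All 9 members had a negative log2 fold change, where 48.7% of the 16009 genes tested did, and the median was -0.37 against 0.01 over all genes. Both mutant libraries lay below both control libraries for 6 members, where 25.2% of all genes tested did. For Cox6a2, among those 6, the margin was narrow (116.5 against 116.7 CPM). By edgeR's quasi-likelihood test with Benjamini-Hochberg adjustment over all genes, 0 of the 9 passed the threshold of 0.05, as against 0.075% of all genes, or 0.0625% counting lower genes alone. At an unadjusted p under 0.05, 3 members lay lower (Cox7a1, Cox7a2l and Cox8b), where 8.63% of all genes did, and 0 lay higher, where 8.7% did. Cox7a2l left that count when the reads of its pseudogene Gm6969 were added to it (unadjusted p = 0.475 and adjusted p = 0.733 by edgeR's quasi-likelihood test), which leaves 2. DESeq2 called 1 member, Cox7a1, and it called 3.93% of the genes to which it gave an adjusted p, 1.86% of them as lower. Limma-voom called 0. Tissue RNA cannot tell apart fewer cells of a type and less RNA per cell.

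Subunit 6a is a membrane-spanning subunit that takes part in regulation of the enzyme by adenine nucleotides. Cox6a2 (ENSMUSG00000030785, chromosome 7, 128205435 to 128206387, mm10) measured 117 and 119 CPM in the controls against 92.8 and 116 CPM in the mutants. The double knockout libraries were lower, but library 2 lay close to wild type. The fit gave -0.17 on the log2 scale (SE 0.14, edgeR adjusted p = 0.552). That value was -0.02 without double knockout library 1 and -0.35 without double knockout library 2. Its general partner Cox6a1 (ENSMUSG00000041697, chromosome 5, 115345642 to 115348981) measured 58.3 and 57.4 CPM in the controls against 38.8 and 51.0 CPM in the mutants. Both mutant libraries were lower here too, and they lay further apart than the wild type pair. The log2 fold change of Cox6a1 was -0.37 (SE 0.15; edgeR adjusted p = 0.295). Without double knockout library 2 the value for Cox6a1 was -0.58, and without double knockout library 1 it was -0.18.

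The ratio of Cox6a2 to Cox6a1 per kb of exon was 2.07 and 2.15 in the controls against 2.47 and 2.36 in the mutants. The 95% counting intervals, which cover counting error only, ran from 1.95 to 2.29 over the wild type libraries and from 2.18 to 2.65 over the double knockout libraries. Per kb of exon the heart form thus made up 67.4% and 68.2% of the pair in wild type and 71.2% and 70.2% in double knockout. These shares depend on the length used. Over principal transcripts the ratio was 1.68 and 1.75 in the controls against 2.01 and 1.92 in the mutants. The ratios of the groups did not overlap, but the counting interval of double knockout library 2 (2.18 to 2.56) overlapped those of both control libraries. The log2 difference of the ratio was 0.20, and the pooled SD between libraries of a group was 0.04. Such an SD, here and for the pairs below, rests on 2 libraries per group and is poorly determined. Every comparison of 2 libraries with 2 is limited to p = 0.333 in a two-sided exact permutation test, and this ratio reached that value. Ratios within a library do not depend on the scaling between libraries.

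Subunit 7a is a small membrane-spanning subunit, and its relatives take part in how complex IV joins with itself and with complex III. Cox7a1 (ENSMUSG00000074218, chromosome 7, 30184144 to 30186078) had 562 and 466 reads in the wild type libraries and 290 and 186 in the double knockout libraries. Scaled for depth it measured 19.8 and 18.7 CPM in the controls against 10.2 and 11.4 CPM in the mutants, so the groups lay well apart with little spread within each. The fit gave -0.84 on the log2 scale (SE 0.15, edgeR adjusted p = 0.134), and DESeq2 gave an adjusted p = 0.00724. Leaving out double knockout library 1 or 2 gave -0.76 and -0.92, and leaving out a control library gave -0.80 and -0.89. With all 4 libraries kept, its adjusted p over the alternative settings ranged from 4.68e-04 to 0.191, both by edgeR. Of the 15 alternative settings 4 gave a call, and those settings called far more of all genes than the 12 of the main test. DESeq2 called 532 of all genes, and the fit without the filter on low counts called 1514. Its general partner Cox7a2 (ENSMUSG00000032330, chromosome 9, 79755361 to 79759878) measured 118.9 and 119 CPM in the controls against 105 and 123 CPM in the mutants. These groups overlapped, with a fitted log2 difference of -0.06 (SE 0.12, edgeR adjusted p = 0.815). The sign of that value turned without composition scaling (0.0044).

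The ratio of Cox7a1 to Cox7a2 per kb was 0.294 and 0.277 in the controls against 0.172 and 0.163 in the mutants. The muscle form was therefore 22.7% and 21.7% of the pair in the wild type libraries and 14.7% and 14.0% in the double knockout libraries. The groups did not overlap, and neither did their counting intervals, 0.251 to 0.321 in wild type and 0.140 to 0.194 in double knockout. The log2 difference was -0.77, a ratio of 0.587, against a pooled SD of 0.06 (exact permutation p = 0.333, the smallest possible). With any 1 of the 4 libraries left out it lay between -0.81 and -0.72.

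Subunit 8 is a very small subunit with a single membrane span. Cox8b (ENSMUSG00000025488, chromosome 7, 140898945 to 140900446) measured 20.2 and 19.3 CPM in the controls against 13.8 and 13.3 CPM in the mutants. The groups were apart and each pair was tight. The fit gave -0.54 on the log2 scale (SE 0.14, edgeR adjusted p = 0.170), and DESeq2 gave an adjusted p = 0.131. With 1 library left out the fitted value of Cox8b lay between -0.58 and -0.51. Its general partner Cox8a (ENSMUSG00000035885, chromosome 19, 7215153 to 7217616) measured 45.3 and 54.2 CPM in the controls against 44.4 and 47.5 CPM in the mutants. Those groups overlapped, and the spread of the wild type pair exceeded the difference between genotypes (-0.12, SE 0.13; edgeR adjusted p = 0.690).

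The ratio of Cox8b to Cox8a per kb was 0.765 and 0.612 in the controls against 0.536 and 0.483 in the mutants. Per kb of exon Cox8b made up 43.3% and 38.0% of the pair in wild type and 34.9% and 32.6% in double knockout. Over principal transcripts the ratio was 0.680 and 0.544 in the controls against 0.476 and 0.429 in the mutants. The groups did not overlap, but wild type library 2 lay nearer to double knockout library 1 than to its own partner, and their counting intervals overlapped (0.551 to 0.679 and 0.478 to 0.60). The log2 difference of -0.43 compares with a pooled SD of 0.18. Leaving out the first control library gave -0.27 and leaving out the second gave -0.59, so the size of this difference rests on the control pair.

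**Figure D2:**
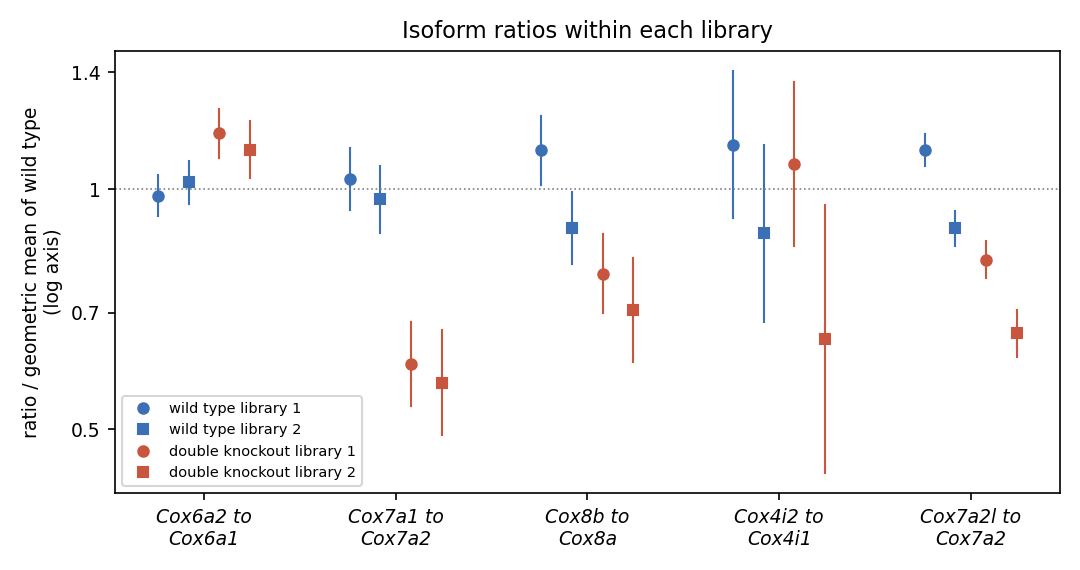
Ratio of the first to the second gene of each pair in each library, divided by the geometric mean of the wild type libraries, on a log axis. Bars are 95% counting intervals, colours and symbols mark genotype and library, and the dotted line is the wild type mean. The Cox7a1 to Cox7a2 points of double knockout sit near 0.6, those of Cox6a2 to Cox6a1 lie above 1, and those of Cox4i2 to Cox4i1 overlap.

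The 3 heart and muscle genes lie on chromosome 7, and the general forms lie on chromosomes 5, 9 and 19. None of the 9 members lies on chromosome 15 or 16, which carry Mrtfa and Mrtfb. Taken as subunit positions, with both isoforms summed per kb, the sums gave the following levels. Subunit 6a was at 256 ± 1.81 CPM per kb in wild type and 218 ± 36.9 in double knockout, a difference of -14.9%. Subunit 7a was at 162 ± 1.06 and 141 ± 15.1 CPM per kb (-13.1%), and subunit 8 at 135 ± 8.45 and 112 ± 2.59 CPM per kb (-17.2%). Subunit 4 was at 129 ± 1.87 and 112 ± 4.41 CPM per kb (-12.5%). At each of the 4 positions both mutant libraries lay below both control libraries, where 25.2% of single genes tested did. The sums reuse the members described above. For subunit 6a, double knockout library 2 lay near wild type, at 244 CPM per kb against 255 in wild type library 1.

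Subunit 4 takes part in inhibition of the enzyme by ATP. Cox4i1 (ENSMUSG00000031818, chromosome 8, 120668222 to 120674207) measured 191 and 196.5 CPM in the controls against 165 and 176 CPM in the mutants. Both mutant libraries were lower, with a fitted log2 difference of -0.19 (SE 0.10, edgeR adjusted p = 0.411). A Cox4i1 transcript overlaps Emc8 on the opposite strand over 154 bases, and no source used here gives the strand setting of the counting, so reads of the overlap cannot be assigned. Emc8 measured 22.2 and 21.1 CPM in the controls against 18.4 and 19.7 CPM in the mutants.

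Cox4i2 (ENSMUSG00000009876, chromosome 2, 152754173 to 152765037) was the rarest member, with 86, 60, 70 and 26 reads in wild type libraries 1 and 2 and double knockout libraries 1 and 2. Its levels of 3.03 and 2.41 CPM in the controls against 2.47 and 1.59 CPM in the mutants overlapped. The log2 fold change was -0.40 (SE 0.32; edgeR adjusted p = 0.556), and it moved to -0.78 without double knockout library 1, -0.15 without double knockout library 2 and -0.23 without the first control library. The ratio of Cox4i2 to Cox4i1 per kb was 0.0312 and 0.0241 in the controls against 0.0295 and 0.0178 in the mutants, and a difference was not detectable at this depth. Over principal transcripts the wild type mean of this ratio was 0.0147 in place of 0.0277. Cox4i2 is known from pericytes, and of 10 pericyte markers 8 had a negative log2 fold change (48.7% of all genes) with a median of -0.07. The groups lay apart for 3 of the 10, all on the lower side (25.2% of all genes). Rgs5, a pericyte regulator of G protein signalling and 1 of those 3, measured 377 and 391 CPM in the controls against 325 and 288 CPM in the mutants. Abcc9 overlapped, at 467 and 503 CPM in the controls against 500 and 465 CPM in the mutants. The pericyte list summed to 1297 and 1324 CPM in the controls against 1220.0 and 1162 CPM in the mutants, and its part in the Cox4i2 level was not tested.

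Cox7a2l (ENSMUSG00000024248, chromosome 17, 83501918 to 83517330) measured 138 and 110.3 CPM in the controls against 88.5 and 84.0 CPM in the mutants. The groups did not overlap, and the wild type libraries differed from each other by more than the double knockout libraries did. The fit gave -0.52 on the log2 scale (SE 0.14, edgeR adjusted p = 0.174), and DESeq2 gave an adjusted p = 0.0890. With 1 library left out the fitted value lay between -0.69 and -0.36. The level of Cox7a2l cannot be read alone. A processed pseudogene on chromosome 12, Gm6969 (24638669 to 24639010), is nearly a copy of its coding sequence. After 213 coding bases the copy has 6 bases more than the reference Cox7a2l, and outside that stretch they differ at 1 of the remaining bases. The reading frame of Cox7a2l is 336 bases long and the copy 342. The stretch around the length difference is shown from the GENCODE M21 transcripts (mm10), 5′ to 3′ on the coding strand. Most of the difference between the reference sequences lies there. The alleles of these libraries were not tested, so their reads need not differ at this stretch as the references do. Capitals mark where the references differ.
Cox7a2l: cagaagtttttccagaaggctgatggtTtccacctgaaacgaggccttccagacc
Gm6969: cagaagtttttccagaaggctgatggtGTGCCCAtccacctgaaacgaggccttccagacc

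Gm6969 lay higher in the double knockout libraries, where Cox7a2l lay lower. It measured 9.55 and 31.1 CPM in the controls against 51.8 and 49.2 CPM in the mutants, with a fitted log2 difference of 1.32 (SE 0.55, edgeR adjusted p = 0.317). Its size rests on the control pair, at 0.70 without the first control library and 2.39 without the second. The reads of Gm6969 as a share of both genes were 6.48% in wild type library 1 (95% Wilson interval 5.77% to 7.26%) and 22.0% in wild type library 2 (20.6% to 23.4%). They were 36.9% (35.4% to 38.4%) and 37.0% (35.0% to 39.0%) in the double knockout libraries. Added together, both genes measured 147 and 141 CPM in the controls against 140.4 and 133 CPM in the mutants. With Gm6969 reads added to Cox7a2l before the fit, the log2 fold change of Cox7a2l was -0.08 (SE 0.10; edgeR adjusted p = 0.733). The ratio of Cox7a2l to Cox7a2 in counts was 1.16 and 0.924 in the controls against 0.844 and 0.682 in the mutants. With Gm6969 added it was 1.24 and 1.18 in the controls against 1.34 and 1.08 in the mutants, and the groups overlapped. Mouse strains are known to carry a long or a short allele of Cox7a2l, and the reference strain, C57BL/6, carries the short one. The labels give different backgrounds for the genotypes, and which alleles these libraries carry was not tested.

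**Figure D3:**
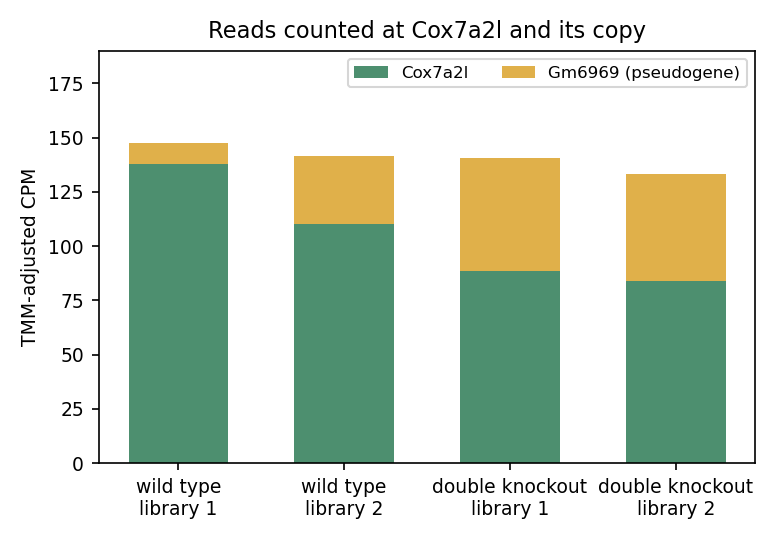
Reads counted at Cox7a2l (green) and at the pseudogene Gm6969 (yellow) in each library, stacked, in TMM-adjusted CPM on an axis from 0. The Cox7a2l part runs from 138 down to 84.0 CPM while the stacked total stays between 133 and 147 CPM.

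The other members were searched for shared sequence in the same way. Cox4i2, Cox7a1, Cox7a2, Cox8a and Cox8b had no stretch of 50 bases in common with the annotated transcripts of another gene. The share of such stretches found in no other gene was 96.7% for Cox6a2, 93.4% for Cox4i1, 90.8% for Cox6a1 and 86.2% for Cox7a2l. The pseudogene Gm13433, 87.4% identical to Cox7a2 over 254 bases, had 0 to 4 reads per library. AC148174.2, a transcribed pseudogene 92.7% identical to Cox6a1 over 496 bases, and Gm46391, 87.1% identical to Cox8a over 202 bases, have no counts used here, so their part in the 6a and 8 ratios was not tested. Between the isoforms themselves, Cox7a1 and Cox7a2 were 71.1% identical over 142 transcript bases and Cox4i1 and Cox4i2 68.9% over 344 bases, and no alignment of 100 bases or more was found between Cox6a1 and Cox6a2 or between Cox8a and Cox8b.

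Cox7a1 and Cox8b have RefSeq promoter sequences (GRCm38.p6) and are shown as the muscle forms that lay lower, up to the first base before the annotated start, with E-boxes (CANNTG, searched on both strands) in capitals. The table held 6 of the 9 members, and Cox6a2, Cox4i1 and Cox4i2 were not among them.
Cox7a1 (chr7:30183921-30184143, plus strand): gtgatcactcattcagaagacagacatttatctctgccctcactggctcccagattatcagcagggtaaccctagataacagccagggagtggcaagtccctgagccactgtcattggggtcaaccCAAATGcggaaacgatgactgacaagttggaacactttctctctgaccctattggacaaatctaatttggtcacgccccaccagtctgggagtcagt
Cox8b (chr7:140900447-140900696, minus strand): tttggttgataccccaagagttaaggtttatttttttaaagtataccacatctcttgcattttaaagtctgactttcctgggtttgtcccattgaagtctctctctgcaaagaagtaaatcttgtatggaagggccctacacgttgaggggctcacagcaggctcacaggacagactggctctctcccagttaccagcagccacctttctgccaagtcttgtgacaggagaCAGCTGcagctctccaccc

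In the full windows of 300 bases, 250 before and 50 after the start, Cox7a1 held 1 E-box and Cox8b 2, and 72.3% of the 32851 promoters of that length held at least 1. A CArG box, the SRF motif, was in 0 of the 6 member windows and in 1.63% of all promoters. A MEF2 site was likewise in 0 of the 6 and in 3.19% of all. The NRF1 motif occurred 2 times in the Cox6a1 window and in none of the other 5, and in 4.60% of all promoters. CpG dinucleotides numbered 7 at Cox7a1 and 2 at Cox8b, against 32 at Cox6a1, 20 at Cox7a2, 19 at Cox8a and 19 at Cox7a2l, where the median of all promoters was 7. These letters describe the windows, and a match is not a bound site.

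Most of the remaining subunits of the enzyme also lay lower. Of the 9 other nuclear subunit genes tested, 7 had a negative log2 fold change, with a median of -0.23. Both mutant libraries lay below wild type for those 7 (25.2% of all genes). By edgeR 0 passed, 4 lay lower at an unadjusted p under 0.05 (8.63% of all genes), and DESeq2 called 1 as lower, Cox7c (1.86% of all genes). Cox5a, which binds the thyroid hormone T2, measured 115 and 128 CPM in the controls against 78.2 and 91.0 CPM in the mutants (log2 fold change -0.52, SE 0.12; edgeR adjusted p = 0.159). Ndufa4, once assigned to complex I, measured 196 and 205 CPM in the controls against 145 and 158 CPM in the mutants. Cox7b, a membrane subunit needed for assembly, measured 219 and 225 CPM in the controls against 178 and 189 CPM in the mutants. Cox6b1, which bridges the dimer on the intermembrane side, measured 262 and 280.0 CPM in the controls against 223 and 245 CPM in the mutants. Cox7c measured 21.6 and 21.8 CPM in the controls against 11.85 and 9.42 CPM in the mutants. Its processed pseudogene Gm12338, identical to it over 119 bases, took more reads than Cox7c itself, 51.1 and 49.8 CPM in the controls against 44.0 and 44.8 CPM in the mutants. The split between them is therefore uncertain.

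The core subunit gene mt-Co1, on mitochondrial DNA, measured 54394 and 53122 CPM in the controls against 46330.0 and 44974 CPM in the mutants (log2 fold change -0.24, SE 0.12; edgeR adjusted p = 0.382). The core genes mt-Co2 and mt-Co3 were counted at 0.0353 to 0.282 CPM and were not tested. The treatment of reads with several matches is not stated in the sources, so those values need not measure expression.

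Of 25 assembly genes tested, 20 had a negative log2 fold change, with a median of -0.28. The groups lay apart for 16 on the lower side (25.2% of all genes) and 2 on the higher side (25.8%). By edgeR 0 passed, and at an unadjusted p under 0.05 there were 7 lower (8.63% of all genes) and 1 higher (8.7%). DESeq2 called 3 lower (1.86% of all genes), Lrpprc, Cmc2 and Taco1. Lrpprc, which keeps mitochondrial messenger RNAs stable, measured 324 and 256 CPM in the controls against 166 and 182 CPM in the mutants (-0.74, SE 0.15; edgeR adjusted p = 0.146). Taco1, the translational activator of mt-Co1, measured 46.3 and 40.7 CPM in the controls against 29.98 and 20.6 CPM in the mutants. Coa3, which acts with newly made COX1 protein, measured 34.0 and 29.7 CPM in the controls against 21.8 and 20.6 CPM in the mutants. Cox10, which makes heme O for the enzyme, measured 62.2 and 48.0 CPM in the controls against 33.1 and 39.9 CPM in the mutants. Surf1, an assembly factor whose loss causes Leigh syndrome, was the 1 gene higher at an unadjusted p under 0.05. It measured 16.6 and 17.7 CPM in the controls against 24.2 and 22.3 CPM in the mutants.

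The genes just upstream in the chain, cytochrome c and complex III, had 10 of 10 members with a negative log2 fold change and a median of -0.49. The groups lay apart for all 10 of them (25.2% of all genes). By edgeR 0 passed, 8 lay lower at an unadjusted p under 0.05 (8.63% of all genes), and DESeq2 called 4 lower (1.86%). Cyc1, the cytochrome c1 subunit, measured 284 and 267 CPM in the controls against 185 and 189 CPM in the mutants (-0.56, SE 0.11; edgeR adjusted p = 0.139), and Cycs, somatic cytochrome c, measured 13.4 and 14.1 CPM in the controls against 9.49 and 7.77 CPM in the mutants.

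**Figure D4:**
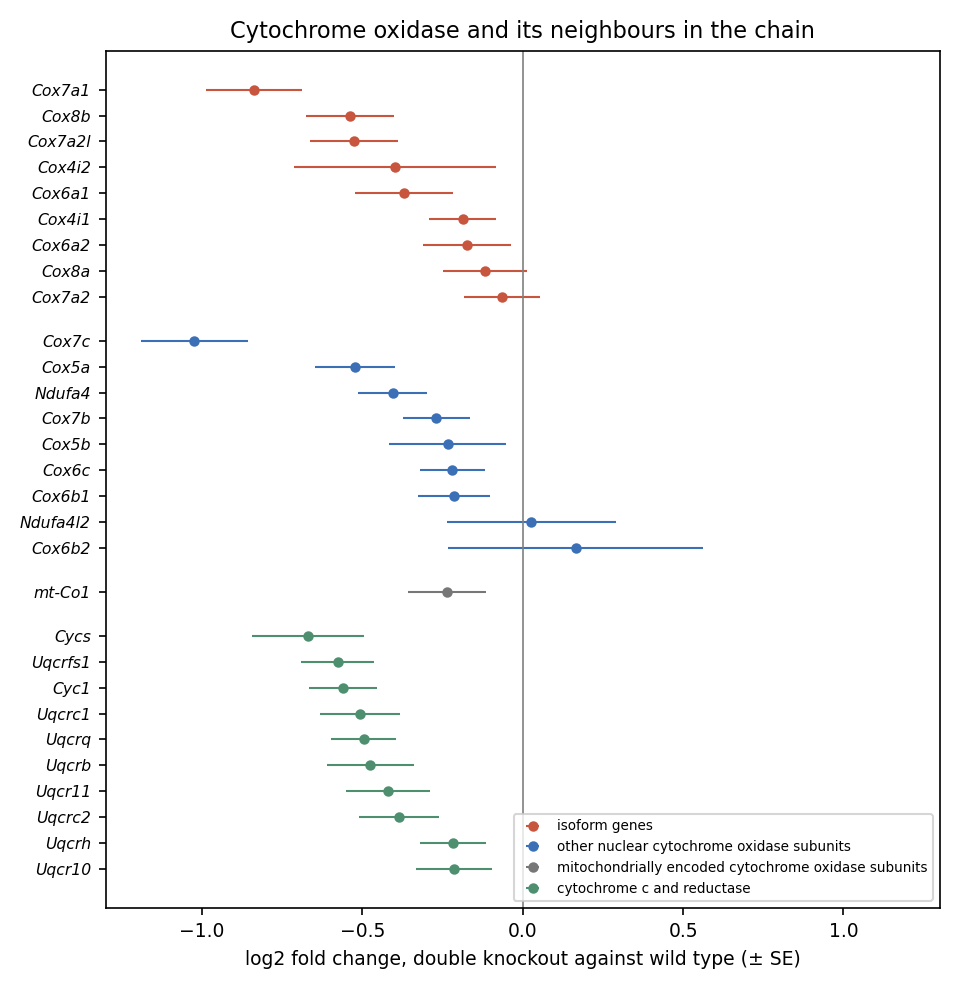
Log2 fold change of double knockout against wild type with its SE for the 9 isoform genes (red), 9 other nuclear subunits (blue), mt-Co1 (grey) and 10 genes of cytochrome c and complex III (green), all from 1 edgeR fit. The isoform genes spread from -0.84 for Cox7a1 to -0.06 for Cox7a2, while the genes of cytochrome c and complex III lie between -0.67 and -0.21.

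Markers of several cell types were set beside these values. Of all genes tested, 48.7% had a negative log2 fold change. Among smooth muscle markers, 8 of 8 had a negative log2 fold change, and the groups lay apart for 7 of them on the lower side (25.2% of all genes). Their sum was 4053.5 and 2475 CPM in the controls against 1353 and 1309 CPM in the mutants. Acta2, smooth muscle actin, carried most of that difference with 2962 and 1468 CPM in the controls against 535 and 439 CPM in the mutants. The other 7 summed to 1092 and 1007 CPM in the controls against 818 and 869.5 CPM in the mutants, mostly Des, which heart muscle expresses. Among skeletal muscle markers 6 of the 7 tested had a negative log2 fold change, and edgeR called 0. The groups lay apart for 4 of those 6 (25.2% of all genes). Acta1, skeletal actin, stood at 149 and 63.5 CPM in the controls against 3.35 and 6.85 CPM in the mutants. Actn3, a fast-fibre actinin, lay the other way at 0.141 and 0.281 CPM in the controls against 0.846 and 1.59 CPM in the mutants. The skeletal muscle list includes Acta1 and Ckm, which heart muscle also expresses. Of 12 cardiomyocyte markers, 9 had a negative log2 fold change, the median was -0.17 and edgeR called 0. The groups lay apart for 8 of the 12 on the lower side (25.2% of all genes) and 1 on the higher side (25.8%). Only Mb lay lower at an unadjusted p under 0.05, where 8.63% of all genes did. Mb, myoglobin, measured 2982 and 3089 CPM in the controls against 1909 and 1656 CPM in the mutants. Myh7 (log2 fold change 0.73), Pln (0.14) and Tnnt2 (0.08) lay on the higher side. Of the 7 brown adipocyte markers tested, 6 had a negative log2 fold change with a median of -0.34, and Pparg lay higher (0.28). The groups lay apart for 4 on the lower side (25.2% of all genes). The list summed to 710.0 and 682 CPM in the controls against 644 and 538 CPM in the mutants, mostly Fabp4. Its regulator Prdm16 measured 35.9 CPM in both controls against 24.5 and 22.2 CPM in the mutants, and DESeq2 called it (adjusted p = 0.0273) while edgeR did not (adjusted p = 0.146). Endothelial markers were divided, 4 lower and 4 higher with a median of 0.02, and fibroblast markers were 5 lower and 3 higher with a median of -0.13. Erythroid genes were 4 lower and 4 higher with a median of -0.09. The part of these lists in the Cox7a1 and Cox8b levels was not tested.

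By distance between log2 CPM profiles centred on each gene's mean over the 4 libraries, the 5 genes nearest to the mean profile of Cox6a2, Cox7a1 and Cox8b, among 7009 genes with a mean of at least 20 CPM, were Klhl9, Coq6, Uqcrq, Mcur1 and Cd300lg. Their distances ran from 0.0213 to 0.0634. Coq6 makes coenzyme Q, Uqcrq is a complex III subunit and Mcur1 a regulator of mitochondrial calcium uptake. The functions of Klhl9, the nearest, and Cd300lg are not covered here, so no theme is read from the 5. The averaged members differ in log2 fold change (-0.17 for Cox6a2, -0.84 for Cox7a1 and -0.54 for Cox8b). The 5 genes lay between -0.53 and -0.50, so they resemble the mean more than Cox6a2 or Cox7a1. A profile over 4 libraries is short, so many genes come close.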

How the data were processed

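RNA of whole hearts was sequenced in 4 libraries, 2 per genotype. Per the submitters' processing notes the authors used HTSeq, DESeq 1.10.1 and the mm10 build, and they deposited whole-number counts of reads per gene, 1 column per library. No source used here gives the aligner, annotation, strand setting or handling of multiple matches. Of 43346 identifiers, 42462 matched GENCODE M21 after the version suffix was dropped, and 0 rows named no gene. A gene with 3 counts lies at 0.106 to 0.184 CPM, depending on the library.

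From these counts edgeR 4.0.16 in R 4.3.3 fitted the main comparison (filterByExpr, TMM, robust quasi-likelihood, no covariate), adjusting p over 16009 genes by Benjamini-Hochberg with a threshold of 0.05. DESeq2 1.42.0 and limma 3.58.1 (voom) served as alternatives among 15 in all, 13 planned and 2 added after the data were seen. Ratios used counts per kb of exon and a two-sided exact permutation test. Shared sequence was sought with blastn 2.17.0 (alignments of at least 100 bases). The edgeR, DESeq2 and limma-voom fits were run on simulated counts first. Genes were named by rule: the members, Mrtfa and Mrtfb, up to 6 genes of each list at an unadjusted p under 0.05 with its 2 most abundant, and the 5 nearest profiles. The text prints part of these. Genes outside the rule were chosen after their values or sequence matches were seen. They were Emc8, the pseudogenes, Surf1, Myh7, Pln, Tnnt2, Abcc9, Pparg, mt-Co3 and the defining markers at or near 0. Of the other isoform pairs they were Slc25a5, Ckb, Pgam1, Eno3, Eno1 and Ldhb. The members and lists were chosen with earlier results of these data known. Deviations of libraries with the same replicate number correlated at r = -0.12, and the labels tie no number to an animal or day.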

Additional observations from a re-analysis of the deposited data

How the results depend on the processing

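The 2 libraries per group limit every comparison, and Cox4i2 with 26 to 86 reads is further limited by depth. The count of genes past the threshold, 12 in the main test, was 1514 without the filter on low counts, 532 by DESeq2, 2 with a replicate block and 3 with the crossed pairing, and it ran from 2 to 2795 with 1 library left out (2 without wild type library 1, 3 without wild type library 2, 2795 without double knockout library 1, 1364 without double knockout library 2). The count of isoform genes, 0 in the main test, was 3 without the filter (Cox7a1, Cox7a2l and Cox8b), 1 by DESeq2 and 0 to 3 with 1 library left out. The replicate block called 0 isoform genes, and the numbers do not pair the samples. Where 1 library is left out, the lone library is assumed to vary like the other group. The cause of these shifts was not tested.

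Of 135 pairs of an isoform gene and an alternative, 123 kept direction and side of the threshold, 9 gained a call and 3 turned sign. Cox7a2 turned to 0.0044 without composition scaling and ranged from -0.19 to 0.0447 with 1 library left out, and Cox8a ranged from -0.24 to 0.0043. Mrtfb ranged from -0.25 to 0.0116 and Mcam from -0.27 to 0.0545. Among marker genes, the same range was -1.40 to 0.11 for Cidea, -0.25 to 0.0708 for Col3a1, -0.41 to 0.0062 for Postn, -0.42 to 0.41 for Hbb-bs and -0.50 to 0.44 for Hba-a1. Hba-a1, at 0.04 in the main test, also turned to -0.0702 by limma-voom, -0.0263 with the replicate block and -0.0245 with the crossed pairing. Of 1036 pairs over all genes named by the rule, 895 kept direction and side, 126 gained a call and 15 turned sign. The isoform ratios kept their direction with any library left out (Cox6a2 to Cox6a1 0.16 to 0.23, Cox7a1 to Cox7a2 -0.81 to -0.72, Cox8b to Cox8a -0.59 to -0.27), except Cox4i2 to Cox4i1, which ranged from -0.63 to 0.11. Adding pseudogene reads gave no value for the 6a and 8 pairs.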

Other observations

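Other enzymes with paired isoforms gave mixed ratios. Mitochondrial creatine kinase was the widest apart: Ckmt2, the sarcomeric form, had 357 and 246 reads for each read of Ckmt1 in the controls against 37.4 and 52.1 in the mutants, but Ckmt1 itself lay at 0.423 to 1.41 CPM. Lactate dehydrogenase pairs a heart form, Ldhb, with a muscle form, Ldha. The ratio of Ldhb to Ldha per kb was 1.74 and 1.95 in the controls against 2.18 and 2.14 in the mutants. Ratios of the adenine nucleotide translocases (Slc25a4 to Slc25a5), cytosolic creatine kinases (Ckm to Ckb), phosphoglycerate mutases (Pgam2 to Pgam1) and enolases (Eno3 to Eno1) overlapped between genotypes. Over these 12 genes, 10 had a negative log2 fold change (48.7% of all genes) with a median of -0.42, and edgeR called 0. At an unadjusted p under 0.05, 7 lay lower (8.63% of all genes) and 1 higher (8.7%). DESeq2 called 3 lower (1.86%), Ckm, Ckmt2 and Pgam2.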
